A study of Rattus norvegicus with 10 samples.

Results

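The 10 genes described here are markers of lymphocytes, namely Cd3d, Cd3e, Cd2, Cd8a, Nkg7, Ccl5, Prf1, Cd79b, Cd52 and Ptprc, measured in rat liver. Every probe set whose platform annotation gives exactly 1 gene symbol, and that symbol one of these, was kept, which gave 14 of the 31042 probe sets tested on the array. Cd8a has 3 probe sets, Cd3e and Ptprc have 2 each and the other genes have 1 each. The livers came from male rats of the outbred Sprague-Dawley strain, 5 of them given a short-term exposure to effluent of the bulk drug industry and 5 of them controls. The dose, the length of the exposure and the age of the animals are not given in the sources used here. Each array holds the RNA of a whole piece of liver from 1 animal, so fewer lymphocytes and less RNA of a gene per lymphocyte cannot be told apart.

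Liver is built mainly of hepatocytes, and its blood sinusoids also hold resident macrophages, called Kupffer cells, together with T cells, natural killer (NK) cells and a smaller number of B cells. T cells recognise antigen through a receptor that signals by the CD3 chains, B cells do so through surface immunoglobulin that signals by CD79, and NK cells and cytotoxic T cells kill target cells with perforin and granzymes. CD8 marks cytotoxic T cells, and in the rat it is also found on NK cells. Because these cells are scattered among hepatocytes, their transcripts are diluted in RNA of whole liver.

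The values are log2 expression per probe set, so a difference of 1 is a doubling of the signal. Correlations between arrays lay from 0.991 to 0.996, and 0 pairs of arrays held identical values. The tissue label was borne out by the hepatocyte genes, of which 7 of 8 listed were measured (Alb, Apoa1 and Ttr among them). Their mean level lay between 14.35 and 14.42 in exposed livers and between 14.38 and 14.41 in control livers. The ratio of 3' to 5' signal of Gapdh and beta-actin, a sign of RNA quality, lay between 0.494 and 0.604 on the log2 scale in exposed livers and between 0.508 and 0.735 in control livers, with control animal 5 highest.

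Most of the lymphocyte markers gave a signal near the low end of the array. Of the 14 probe sets, 10 had a mean below that of the median probe set, and their place in the ranking of all 31042 probe sets went from the percentile 21.2 for the dimmer Cd3e probe set to 76.4 for Ccl5. As a yardstick, 26 measured genes restricted to other tissues, such as Ins2 of the pancreas, Prm1 of the testis and Gfap of the brain, had a median level of 4.03, with 10% of them below 3.35 and 10% above 5.82. Of the lymphocyte probe sets, 13 of 14 lay above the median of these genes but only Ccl5, at 7.34, and a Ptprc probe set, at 6.50, lay above that upper bound. The highest of the restricted genes read 7.15, so Ccl5 alone exceeded all 26. Probe sets differ in affinity, so these places describe signal and do not rank the transcripts.

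**Figure D1:**
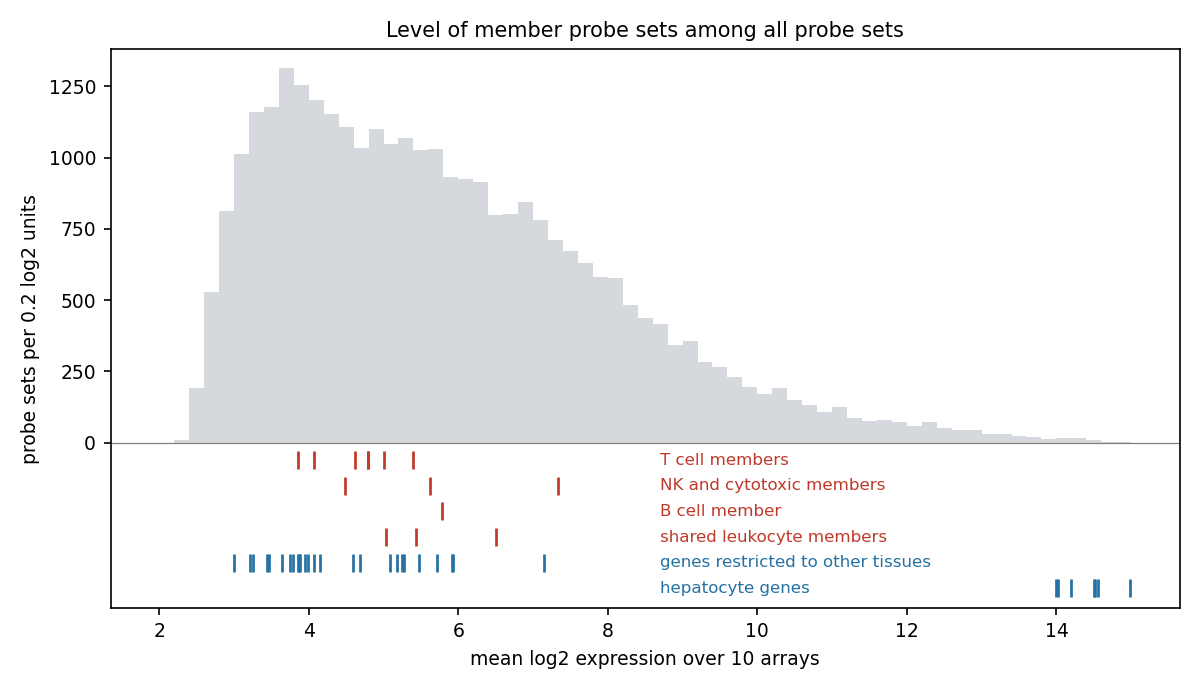
Histogram of the mean log2 expression of all 31042 probe sets over 10 arrays, with vertical marks below it for the 14 member probe sets (red), 26 genes restricted to other tissues and 7 hepatocyte genes (blue). Members lie in the left and middle part of the distribution, and only Ccl5 at 7.34 lies right of every gene restricted to other tissues.

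The T cell markers lay low on the array, and their probe sets did not move as a block. Cd3d, the delta chain of CD3, read 4.52, 4.77, 4.76, 4.81 and 4.73 in exposed animals 1 to 5, against 4.69, 4.71, 4.31, 4.49 and 4.38 in control animals 1 to 5. Exposed animal 1 lay apart below the other exposed animals, control animals 1 and 2 overlapped with the exposed group, and the remaining controls lay below all exposed animals. The difference was 0.20 ± 0.09 (SE, n = 5 each), with a 95% interval of 0.01 to 0.40 and a limma adjusted p of 0.879. Cd3e, the epsilon chain of CD3, read 5.54, 5.11, 4.84, 5.07 and 4.83 in exposed animals on its brighter probe set, against 5.28, 4.89, 5.03, 4.66 and 4.82 in control animals. The groups overlapped throughout, with the difference at 0.14 ± 0.14 (SE; limma adjusted p 0.927), and animal 1 was the highest of each group. The second Cd3e probe set lay between 3.77 and 4.06 in exposed animals and between 3.70 and 3.99 in control animals.

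Cd2, an adhesion receptor of T and NK cells, was the steadiest member. It read 5.37, 5.38, 5.36, 5.66 and 5.41 in exposed animals and 5.40, 5.41, 5.42, 5.38 and 5.23 in control animals. Leaving aside exposed animal 4 at the top and control animal 5 at the bottom, the other 8 animals lay between 5.36 and 5.42. Its SD within groups was 0.10, against 0.13 for the median probe set of the array.

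Cd8a, the alpha chain of CD8, gave different pictures on its 3 probe sets. On 1369877_at it read 4.95, 5.01, 4.73, 5.00 and 4.79 in exposed animals, against 4.51, 4.92, 4.84, 4.53 and 4.57 in control animals, a difference of 0.22 ± 0.09 (SE, n = 5 each; limma adjusted p 0.879). On 1385414_at, whose mean over all animals was nearly the same, it read 4.86, 5.02, 4.45, 4.99 and 4.71 in exposed animals, against 5.09, 4.70, 4.97, 4.46 and 4.65 in control animals, a difference of 0.03 ± 0.13 (SE). Control animal 1 was the lowest of its group on the first of these and the highest on the second. On 1395116_at the values lay between 3.92 and 4.32 in exposed animals and between 3.80 and 4.16 in control animals. With group means removed, the first 2 probe sets correlated at r = 0.44 over the 10 animals (Spearman rho 0.42, exact permutation p 0.242), and the dimmest correlated with them at 0.10 and 0.08. The pair of Cd3e probe sets correlated at 0.33. The pair of Ptprc probe sets correlated at 0.89 (rho 0.81, exact permutation p 0.00125, adjusted 0.00625 over the 5 such pairs). The 2 animals farthest from the median of 1 probe set of the pair (1369877_at of Cd8a, the brighter of Cd3e, the dimmer of Ptprc) were then left out. Without them r was 0.75 for the first 2 Cd8a probe sets, 0.76 for the Cd3e pair and 0.75 for the Ptprc pair.

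Among the NK and cytotoxic markers, Ccl5 and Prf1 differed widely between animals. Ccl5, a chemokine made by activated T and NK cells, read 7.62, 7.71, 6.54, 7.65 and 7.83 in exposed animals, against 7.73, 7.52, 7.50, 7.03 and 6.26 in control animals. Exposed animal 3 and control animal 5 lay far below the rest, and control animal 4 lay between. From the lowest to the highest animal the signal differed 2.97-fold, and the SD within groups, 0.56, exceeded that of 99.3% of probe sets. Prf1, which encodes the pore-forming protein perforin, read 5.80, 6.01, 5.28, 5.89 and 5.61 in exposed animals, against 5.88, 5.74, 5.86, 5.08 and 5.07 in control animals. Again exposed animal 3 and control animals 4 and 5 were the 3 lowest. Nkg7, a protein of cytotoxic granules, read 4.64, 4.75, 4.22, 4.48 and 4.64 in exposed animals, against 4.56, 4.47, 4.39, 4.34 and 4.28 in control animals, with the same 3 animals at the bottom. The differences were 0.26 ± 0.29 for Ccl5, 0.19 ± 0.19 for Prf1 and 0.14 ± 0.10 for Nkg7 (SE, n = 5 each), with limma adjusted p values of 0.932, 0.926 and 0.894. In each of these genes the groups overlapped.

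The stretches around the transcription starts of Prf1 and Nkg7, and of Ptprc, which varied alongside them, are shown with that of Cd3d, which did not follow them. Each runs 5′ to 3′ on the gene's strand from 250 bases before the start to 50 after it, from RefSeq on GRCr8. They lie at chr20:29788790-29789089 (plus strand, Prf1), chr1:102981247-102981546 (plus strand, Nkg7), chr13:52259697-52259996 (minus strand, Ptprc) and chr8:54185269-54185568 (plus strand, Cd3d). Capitals mark the letters AGGAAG, a core bound by ETS factors, and TGTGGT, a core bound by RUNX factors, on either strand (CTTCCT and ACCACA).
Prf1: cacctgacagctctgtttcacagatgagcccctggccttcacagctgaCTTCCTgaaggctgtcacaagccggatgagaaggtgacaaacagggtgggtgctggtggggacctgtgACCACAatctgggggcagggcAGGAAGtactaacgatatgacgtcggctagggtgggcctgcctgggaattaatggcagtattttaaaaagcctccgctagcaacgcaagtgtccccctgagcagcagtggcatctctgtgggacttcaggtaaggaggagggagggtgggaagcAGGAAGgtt
Nkg7: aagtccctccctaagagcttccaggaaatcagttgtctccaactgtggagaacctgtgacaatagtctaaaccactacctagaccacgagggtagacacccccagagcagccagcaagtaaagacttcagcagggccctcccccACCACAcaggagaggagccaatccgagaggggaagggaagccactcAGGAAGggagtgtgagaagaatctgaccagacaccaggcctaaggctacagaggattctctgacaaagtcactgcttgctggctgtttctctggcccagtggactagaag
Ptprc: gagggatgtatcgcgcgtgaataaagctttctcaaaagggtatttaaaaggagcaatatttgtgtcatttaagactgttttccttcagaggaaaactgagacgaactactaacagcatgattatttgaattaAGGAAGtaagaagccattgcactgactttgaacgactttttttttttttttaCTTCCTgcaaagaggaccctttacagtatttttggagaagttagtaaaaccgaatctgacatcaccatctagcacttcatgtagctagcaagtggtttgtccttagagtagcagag
Cd3d: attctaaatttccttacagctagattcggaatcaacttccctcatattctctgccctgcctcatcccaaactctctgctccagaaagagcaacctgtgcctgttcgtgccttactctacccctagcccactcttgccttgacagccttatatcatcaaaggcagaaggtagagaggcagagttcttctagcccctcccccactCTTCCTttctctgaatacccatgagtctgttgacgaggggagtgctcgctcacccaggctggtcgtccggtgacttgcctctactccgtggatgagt
Prf1 holds 3 matches of the ETS letters and 1 of the RUNX letters, Nkg7 holds 1 of each, Ptprc holds 2 ETS matches and Cd3d holds 1. Of the 8 members with such a stretch (not Ccl5 or Cd79b), 5 held the ETS letters, against 34.5% of 33469 stretches of the same length, and 3 held the RUNX letters, against 17.3%. Among the members not shown, Cd2 held 2 RUNX and 0 ETS matches and Cd3e held 1 ETS and 0 RUNX matches. Cd8a, which varied with Prf1, and Cd52 held 0 of both. The T-box letters TCACACC, searched on both strands, were in 0 of the 8, against 3.83% of all stretches. These matches describe letters and say nothing of binding.

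The B cell marker Cd79b, a signalling chain of the B cell receptor, read 5.81, 5.98, 5.29, 5.90 and 5.90 in exposed animals, against 5.88, 5.91, 6.06, 5.66 and 5.39 in control animals. The means of both groups were 5.78, with SDs of 0.28 in exposed and 0.26 in control animals, and the 95% interval of the difference was -0.31 to 0.31 (limma adjusted p 0.998). Exposed animal 3 lay lowest, followed by control animals 5 and 4.

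Of the markers shared by leukocytes, Ptprc (CD45), a phosphatase on the surface of nearly all leukocytes, had the same 3 animals at the bottom as the cytotoxic genes. Its brighter probe set read 6.82, 7.16, 5.87, 6.58 and 6.57 in exposed animals, against 6.50, 6.84, 6.66, 6.08 and 5.92 in control animals. From its lowest to its highest animal the signal differed 2.44-fold. Cd52, a small surface glycoprotein of lymphocytes and some myeloid cells, read 5.45, 4.99, 5.08, 5.42 and 4.96 in exposed animals, against 5.02, 4.73, 5.02, 4.38 and 5.29 in control animals. Here exposed animal 3 lay in the middle of its group and control animal 5 was the highest of its own. The differences were 0.20 ± 0.22 for Ptprc and 0.29 ± 0.16 for Cd52 (SE, n = 5 each), with limma adjusted p values of 0.935 and 0.880.

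**Figure D2:**
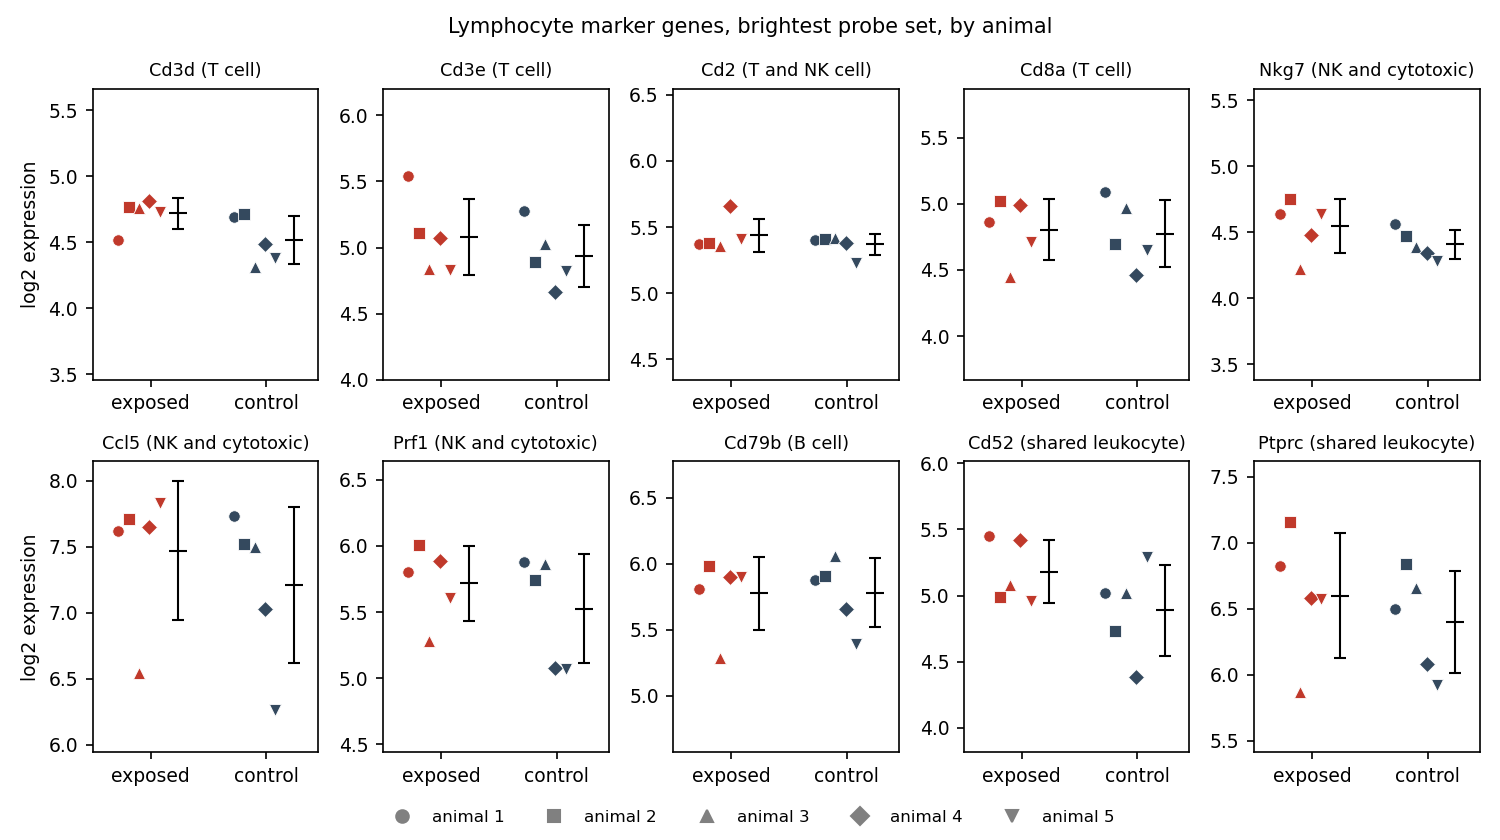
Log2 expression of the 10 genes on the probe set of the highest mean, with 1 symbol per animal and the mean ± SD of 5 animals as black bars. Exposed animals are in red and control animals in dark blue, and symbol shapes are animal numbers, which were not used to pair the groups. All panels span the same number of log2 units, and exposed animal 3 with control animals 4 and 5 are the 3 lowest for Ccl5, Prf1, Nkg7, Cd79b, Ptprc and Cd8a.

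The comparison of exposed with control livers asks whether the effluent altered these markers. By limma, 0 of the 14 probe sets passed an adjusted p of 0.05, as did 0% of all 31042 probe sets, and the smallest adjusted p of a member was 0.879. At an unadjusted p under 0.05 there were 2 of 14, Cd3d (p 0.0418) and 1369877_at of Cd8a (p 0.0384), both higher in exposed livers, against 5.46% of all probe sets in either direction and 3.07% higher. Differences were positive for 13 of 14 probe sets, against 52.0% of all, with a median of 0.14 against 0.0044 over all probe sets. The probe sets share animals and move together, so their count is not a count of independent signs, and the groups overlapped for each of them (0 of 14 apart, against 0.892% of all). The 95% intervals reached from 0.78-fold to 1.84-fold for Ccl5, from 0.82-fold to 1.60-fold for Ptprc (1390798_at) and from 0.805-fold to 1.24-fold for Cd79b. Without exposed animal 3 the difference of Ccl5 was 0.49, and without control animal 5 it was 0.024. With the RNA quality ratio as a covariate 10 of 14 differences stayed positive, and that of Ccl5 was -0.04.

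**Figure D3:**
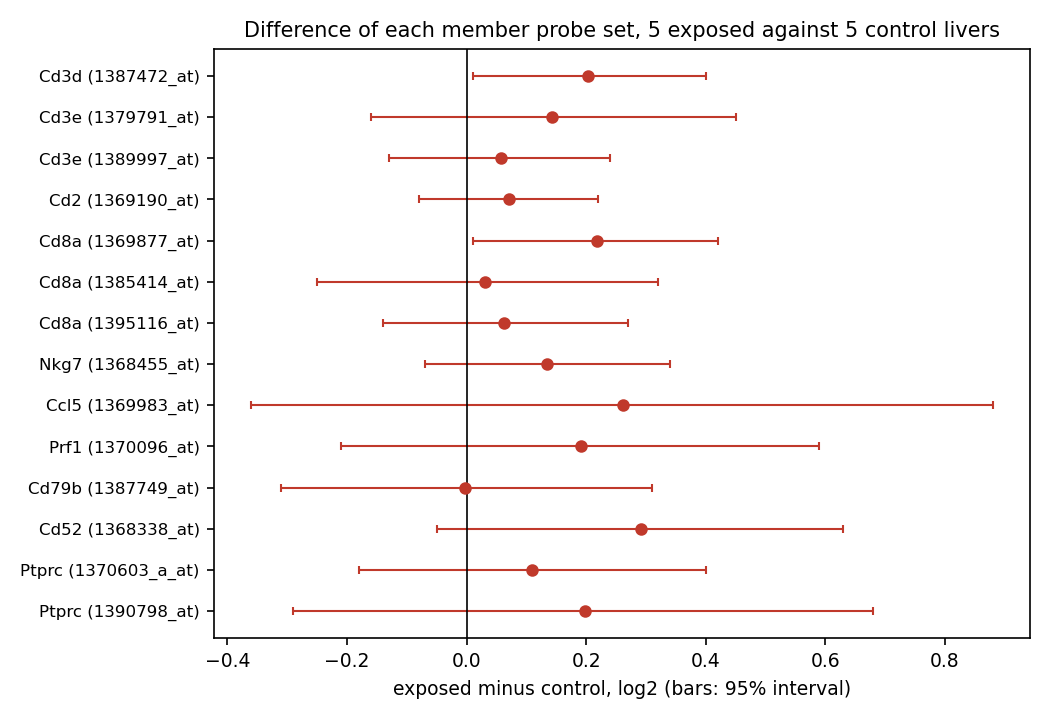
Exposed minus control difference of each of the 14 member probe sets on the log2 scale, with 95% intervals from limma (n = 5 each). All points but Cd79b lie right of 0, and only the intervals of Cd3d and of 1369877_at of Cd8a leave out 0 before adjustment.

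Other genes of the same cells gave the same picture of small differences. Of 17 other T cell genes measured, 13 were higher and 4 lower in exposed livers, with 0 past the adjusted threshold and a median difference of 0.08. Those with the smallest p were Lat, an adaptor of T cell receptor signalling (0.22 ± 0.11, SE), the receptor-linked kinase Zap70 (0.13 ± 0.08) and the surface receptor Cd6 (0.12 ± 0.08). Of 18 other NK and cytotoxic genes, 15 were higher and 3 lower, again with 0 past the threshold and a median of 0.06. The NK receptors Klrc1 (0.15 ± 0.09), Klrc2 (0.13 ± 0.09) and Klrb1a (0.18 ± 0.13) had the smallest p here. Of 10 B and plasma cell genes, 8 were higher and 2 lower with a median of 0.075, led by Fcrla (0.13 ± 0.06), the kinase Blk (0.14 ± 0.09) and the IgE receptor Fcer2 (0.07 ± 0.08). Limma adjusted p values of these 9 genes lay between 0.879 and 0.934. Several gave a signal near the low end of the array, at the percentile 4.52 for Klrc2, 23.3 for Lat and 24.4 for Klrb1a. Fcer2 lay at 25.4 and Klrc1 at 28.2, while the others lay at 42.9 (Blk) or above.

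Among genes of other leukocytes, 11 of 12 shared leukocyte genes were higher in exposed livers, with Cd48 at 0.28 ± 0.21 (SE), Lcp1 at 0.13 ± 0.16 and Ptprcap at -0.06 ± 0.08. Of 13 macrophage genes 11 were higher, with a median difference of 0.18, among them Aif1 (0.34 ± 0.26), Cd5l (0.36 ± 0.29) and the Kupffer cell lectin Clec4f (0.22 ± 0.21). Of 5 neutrophil genes 2 were higher, with S100a9 at -0.06 ± 0.19, S100a8 at -0.03 ± 0.16 and Cxcr2 at 0.05 ± 0.06. Of 12 chemokine and chemokine receptor genes 11 were higher, and 2 had an unadjusted p under 0.05. These were Cxcl10, which draws T cells (0.32 ± 0.10, p 0.00559), and Cx3cl1 (0.18 ± 0.08, p 0.0425), followed by Ccl2 (0.37 ± 0.17). Of all genes of these lists, limma called 0 at an adjusted p of 0.05. Among the 26 genes restricted to other tissues 16 were higher, with a median of 0.01. Of these 26, 2 had an unadjusted limma p under 0.05, both higher in exposed livers. In the chemokine list it was 2 of 12, and over all probe sets 3.07% were higher at that p.

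Gene-to-gene correlations show which of the markers varied together from animal to animal. They were computed over the 10 animals with group means removed and 1 probe set per gene, and tested by permuting animals within groups in every possible order. Of 45 pairs, 39 correlated positively, with a median r of 0.51, and 7 passed an adjusted p of 0.05. These 7 pairs joined Cd8a (on 1385414_at), Nkg7, Ccl5, Prf1, Cd79b and Ptprc. The closest pair was Ccl5, listed here with the NK and cytotoxic markers, and Cd79b, the B cell marker. It had r = 0.94 (rho 0.65, exact permutation p 0.00639, adjusted 0.0411), and r = 0.66 without the 2 animals farthest from the median of Ccl5. Cd8a with Prf1 followed (r = 0.90, rho 0.90, exact permutation p 0.000486, adjusted 0.0219), with 0.79 left when the 2 farthest were left out in the same way. By rank correlation only the pair of Cd8a and Prf1 passed (exact permutation, adjusted p 0.0437).

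Among the 15 pairs of these 6 genes, a group put together after the values were seen, r lay between 0.69 and 0.94. It lay between 0.40 and 0.86 without the 2 animals farthest from the median of 1 gene of the pair. That gene was the first in the order Cd8a, Nkg7, Ccl5, Prf1, Cd79b and Ptprc, so the choice of animals did not look at the other gene. For scale, 1.96% of all other probe sets correlated with Ccl5 at 0.80 or above and 1.76% did so with Prf1, while the median r with Ccl5 over all probe sets was 0.026. For the 2 pairs of the highest r, 0.177% of probe sets were closer to Ccl5 than Cd79b was, and 0.106% were closer to Cd8a than Prf1 was. These pairs were picked by their r, so small shares follow from the choice. For another pair of the 6 genes, 4.71% were closer to Ccl5 than Cd8a was.

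No pair that held Cd3d or Cd3e, the T cell receptor genes, passed the threshold. Cd3d and Cd3e lie next to each other with Cd3g on chromosome 8 in the RefSeq gene table, and their proteins sit in the same receptor complex. On the brighter Cd3e probe set they correlated at r = -0.15 (rho -0.03, exact permutation p 0.684), and at -0.22 without the 2 animals farthest from the median of Cd3d. By this probe set, 66.5% of probe sets were closer to Cd3d than Cd3e was. On the dimmer Cd3e probe set r with Cd3d was 0.22, and the 2 Cd3e probe sets correlated with each other at 0.33. The SD of Cd3d within groups, 0.15, was close to the 0.13 of the median probe set. Over its 9 pairs Cd3d did not exceed 0.38, reached with Cd2. Cd3e came closest to Cd8a (r = 0.73, rho 0.81, exact permutation p 0.0286, adjusted 0.0990) and Prf1 (0.66). With Cd8a it was at 0.93 without the 2 animals farthest from the median of Cd3e. Cd2 reached 0.55 with Cd79b. Cd52 had a negative r with 5 of the other members, all of them weak, from -0.02 with Ptprc to -0.34 with Cd3d (exact permutation p 0.953 and 0.432). Its highest r was with Cd3e, at 0.57 (rho 0.58, exact permutation p 0.0972, adjusted 0.243). The values with Cd3e are for its brighter probe set. On the dimmer one r was 0.77 with Cd8a, 0.60 with Prf1 and 0.17 with Cd52.

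**Figure D4:**
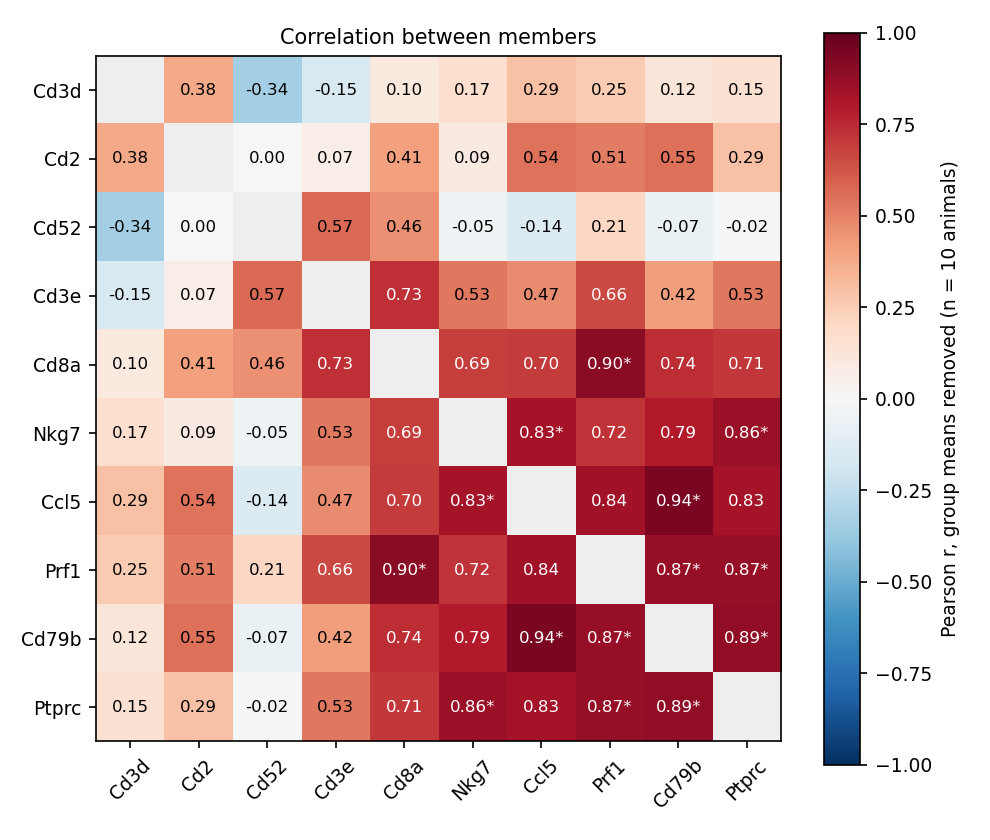
Pearson correlation of each pair of the 10 genes over 10 animals with group means removed, on a colour scale from -1 (blue) to 1 (red); asterisks mark the 7 pairs with an adjusted p under 0.05 by exact permutation. The block of dark red joins Cd8a, Nkg7, Ccl5, Prf1, Cd79b and Ptprc, while Cd3d, Cd2 and Cd52 reach at most 0.57.

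The shared variation was weaker when 3 animals were left out together. On the probe set of the highest mean, exposed animal 3 and control animals 4 and 5 were the 3 lowest for all 6 genes of the group. On 1369877_at of Cd8a, control animals 1, 4 and 5 were lowest instead, at 4.51, 4.53 and 4.57, and exposed animal 3 read 4.73. Exposed animal 3 and control animals 4 and 5 were left out together after the values were seen. Without them the median r of the 15 pairs was 0.15 (range -0.38 to 0.86), and 0 of 45 pairs passed an adjusted p of 0.05. Leaving out the lowest animals narrows the range of each of the 6 genes, which lowers r by itself. No conclusion is therefore drawn from the fall. In the 7 animals left, Ccl5 with Cd79b had r = -0.21, Prf1 with Ptprc 0.46 and Nkg7 with Ccl5 0.55. Cd8a with Prf1 stayed at 0.86, with an exact permutation p of 0.00694, the smallest that 7 animals allow here. This holds for 1385414_at of Cd8a. Over all 10 animals Prf1 correlated at 0.90 with it, but at 0.66 with 1369877_at, of nearly the same mean level, and at 0.30 with 1395116_at. The r of 1369877_at was 0.36 with Nkg7, 0.46 with Ccl5, 0.65 with Cd79b and 0.76 with Ptprc, so the place of Cd8a in the group depends on the probe set. When animals were left out 1 at a time, the median r of the 45 pairs stayed between 0.44 and 0.59, against 0.51 with all 10, while the number of calls moved more. The count of 7 pairs was 0 without exposed animal 2 or exposed animal 3, 1 without control animal 4 or control animal 5, 2 without control animal 1, 3 without control animal 3, 4 without exposed animal 1 or control animal 2, 10 without exposed animal 5 and 14 without exposed animal 4. Without exposed animal 2, where the count was 0, the median r was 0.59, so a lost call there does not mean a lower correlation.

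Signals of macrophages and of leukocytes in general moved with these markers. The mean level of the 13 measured macrophage genes was 8.87, 9.12, 8.34, 9.03 and 8.95 in exposed animals and 8.94, 9.06, 8.93, 8.54 and 8.08 in control animals, so the same 3 animals were lowest, at 8.08 to 8.54, and the others lay at 8.87 or above. Correlations over all 10 animals therefore largely set these 3 against the other 7. With group means removed, it correlated at r = 0.96 with Ccl5 (rho 0.79), 0.95 with Cd79b (rho 0.84), 0.90 with Prf1 (rho 0.87), 0.90 with Ptprc (rho 0.88) and 0.78 with Nkg7 (rho 0.72). Each of these 5 had an exact permutation p, adjusted over 70 relations, of 0.0278. Without exposed animal 3 and control animal 5, which lay farthest from the median, r was 0.77, 0.82, 0.88, 0.81 and 0.49 in the same order of genes. In the 7 animals without the 3 lowest, r was -0.05 for Ccl5, 0.39 for Cd79b, 0.42 for Prf1, 0.60 for Ptprc and 0.19 for Nkg7. Here too the choice of animals narrows the range, so no conclusion is drawn from the lower r. Over all 10 animals, correlations with the macrophage mean did not pass for Cd3d (0.37), Cd3e (0.42), Cd2 (0.60), Cd8a (0.70) and Cd52 (-0.16). In the 7 animals these were 0.64 for Cd3d, higher than for any of the first 5 genes, -0.51 for Cd3e, 0.20 for Cd2, 0.06 for Cd8a and -0.58 for Cd52. The macrophage mean was not particular in this: the mean of the 12 shared leukocyte genes passed with the same 5 members by exact permutation, at 0.95 with Ccl5, 0.95 with Cd79b, 0.94 with Ptprc, 0.88 with Prf1 and 0.84 with Nkg7 over all 10 animals. The part of macrophages or other leukocytes in the levels of these genes was not tested.

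**Figure D5:**
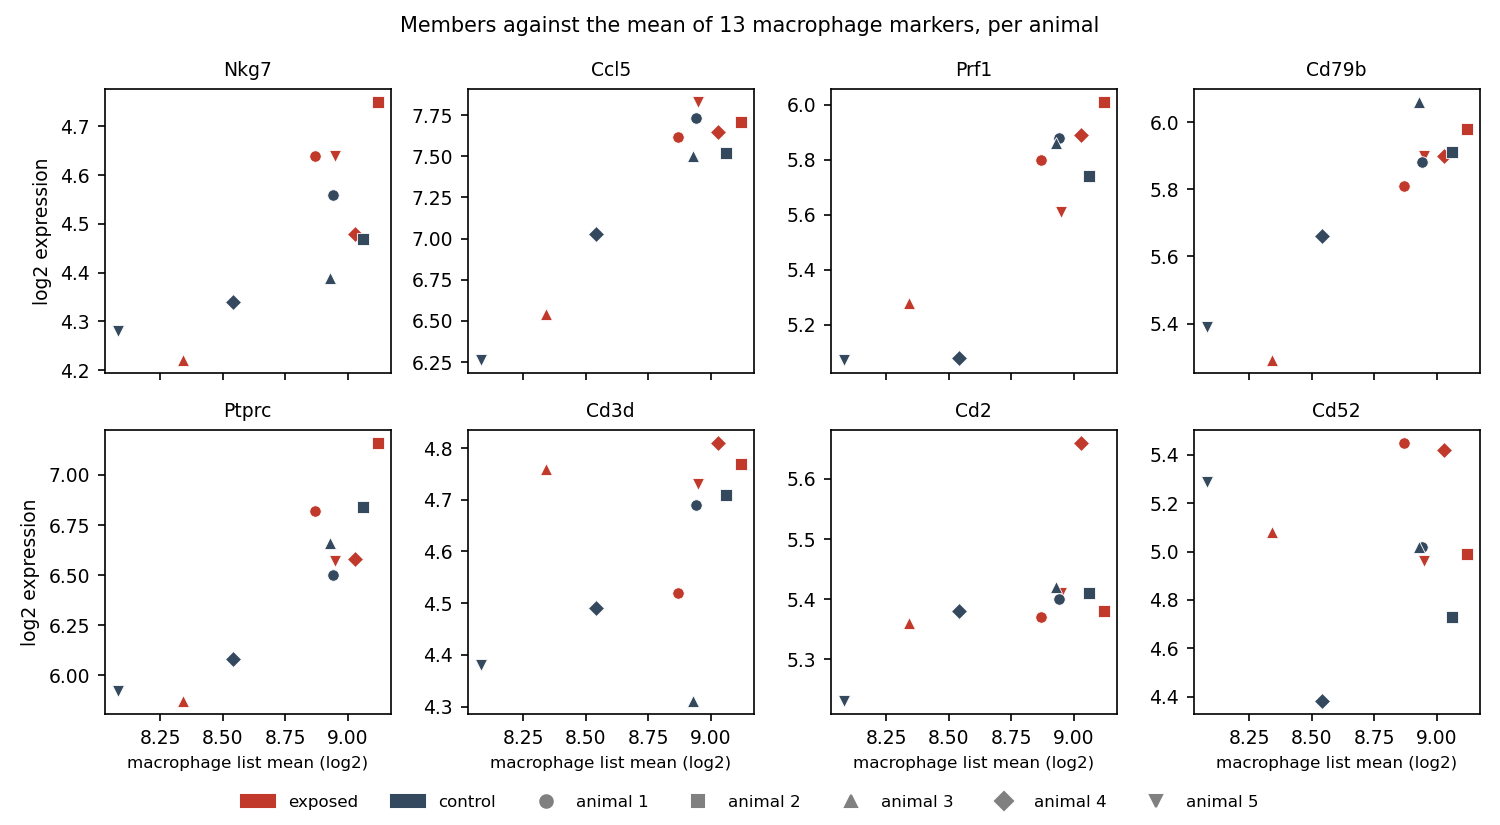
Log2 expression of 8 members against the mean log2 level of 13 macrophage markers, with 1 symbol per animal (exposed in red, control in dark blue). In the panels of Nkg7, Ccl5, Prf1, Cd79b and Ptprc, exposed animal 3 and control animals 4 and 5 are the 3 lowest on both axes, while in that of Cd52 control animal 5 is among the highest.

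Lists of lymphocyte genes that hold none of the 10 members were set against them in the same way. The mean of the 17 T cell genes correlated at 0.80 with Cd8a, 0.83 with Nkg7, 0.87 with Ccl5, 0.89 with Prf1, 0.86 with Cd79b and 0.88 with Ptprc, all past the adjusted threshold by exact permutation, but at 0.48 with Cd3d and 0.47 with Cd3e, which did not pass. Without exposed animal 3 and control animal 5 the first 6 of these lay between 0.53 and 0.80, Cd3d was at 0.71, within their range, and Cd3e at 0.29. The mean of the 18 NK and cytotoxic genes passed with Cd8a (0.82), Nkg7 (0.85), Ccl5 (0.89) and Prf1 (0.87), and its rho with Ccl5 was 0.95. It correlated at 0.88 with Cd79b and 0.82 with Ptprc, which fell just short of the threshold (exact permutation, adjusted p 0.0521 and 0.053). Their r lay in the range of the 4 that passed, so the list mean does not set the cytotoxic members apart from these 2. Without exposed animal 3 and control animal 4 the 4 that passed lay between 0.51 and 0.96, Cd79b was at 0.82, Ptprc at 0.59 and Cd3d at 0.63. The mean of the 10 B and plasma cell genes passed with 0 of the 10 members by exact permutation. It gave 0.67 with the B cell marker Cd79b (rho 0.60, exact permutation p 0.0547, adjusted 0.137), against 0.95 of Cd79b with both the macrophage and the shared leukocyte mean, a gap that was not tested. These lists also differ in signal. The median percentile of the B and plasma cell genes was 40.2, against 92.5 for the macrophage and 81.5 for the shared leukocyte genes. It was 39.7 for the T cell and 39.6 for the NK and cytotoxic genes. Cd79a, the partner chain of Cd79b, was not analysed here. The RNA quality ratio passed with 0 members. Its strongest correlation was with Ccl5 at -0.70 (rho -0.77, exact permutation p 0.0437, adjusted 0.122), and at -0.29 without exposed animal 5 and control animal 5. The median level of each array also passed with 0 members. It came closest to Ccl5 at 0.75 (rho 0.55, exact permutation p 0.0231, adjusted 0.0702), and at 0.51 without the same 2 animals. With Cd79b it gave 0.65 and with Nkg7 0.56.

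The genes most like each member were ranked by the same r among 14207 other genes, as a description over 10 animals. For Cd79b these were C1qc (0.98) and C1qa (0.98), subunits of complement C1q that macrophages make, and Akr1b1 (0.97). For Ccl5 they were Tspan13, the nuclease Dnase1l3 and Cyba, a subunit of the phagocyte oxidase (0.985 each). For Ptprc they were Abi3 (0.96), the myeloid and B cell transcription factor Irf8 (0.95) and Tm6sf1 (0.95). For Prf1 they were the proteasome subunit Psmd8 (0.97), the protease Plau (0.97) and Unc119 (0.97), and for Nkg7 D430041D05Rikl (0.94), the interferon-induced GTPase Gbp2 (0.94) and Nt5c (0.94). Cd8a was closest to Mlnr (0.95), Sod2 (0.95) and C1h10orf88 (0.94), and Cd3e to Rex1bd (0.96), Smarcc1 (0.95) and the immediate early gene Egr1 (0.94). Cd3d was closest to Flt1 (0.95), Ckmt1 (0.95) and Zfp438 (0.92), and Cd2 to Ece2 (0.96), Rassf9 (0.95) and Slc4a10 (0.94). Cd52 was closest to the blood group gene Rhd (0.99), then Macroh2a1 (0.95) and the lipoxygenase Alox15 (0.93). With 14207 genes over 10 animals high values arise for any gene, so closeness as such sets no member apart.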

How the data were processed

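Liver RNA of 5 exposed and 5 control rats was hybridised to Affymetrix 3' expression arrays, 1 per animal. The authors deposited log2 values per probe set, and the submitters' processing notes name R 2.8.1 and RMA, a method that corrects background and normalizes between arrays before it summarises probes. That the scale is log2 follows from the range of the values. No detection calls were used. Precision is limited by the number of arrays.

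The table holds 31099 probe sets, of which the 57 Affymetrix controls were not tested. Genes were named from the platform annotation (20826 probe sets with 1 symbol, 436 with several, 9780 unnamed here). All 10 members were found by Entrez number in RefSeq (GRCr8). Exposed minus control was fitted by lmFit and eBayes of limma 3.58.1 under R 4.3.3, two-sided, adjusted by Benjamini-Hochberg over 31042 probe sets and a threshold of 0.05. Correlations used Python 3.11.15 and a two-sided exact permutation test within groups, adjusted over 45 pairs, 5 same-gene pairs or 70 relations with other measures. Scripts were tested on simulated data. The members, lists and tests were chosen with earlier results of these data known. Named genes are all members, 3 genes of smallest p per marker list for 7 lists, and the 3 most correlated genes of each member; Alb, Apoa1, Ttr, Ins2, Prm1, Gfap, Cd3g and Cd79a are named outside this rule, as examples or neighbours. The labels do not say whether same-numbered animals were paired, and the animals were treated as unpaired. Deviations of same-numbered animals correlated between -0.07 and 0.094, and such small values cannot exclude a pairing.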

Additional observations from a re-analysis of the deposited data

Results flagged for a closer look

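In 28 groups of 5 animals (14 probe sets, exposed and control), 5 held an animal whose gap to its nearest neighbour was large against the range of the group, where chance gives about 1 in 20 groups, or 1.4. Exposed animal 3 read 6.54 for Ccl5 (other exposed animals 7.62 to 7.83) and 5.29 for Cd79b (5.81 to 5.98). For Cd2, exposed animal 4 read 5.66 (5.36 to 5.41) and control animal 5 read 5.23 (other control animals 5.38 to 5.42). Exposed animal 1 read 4.52 for Cd3d (4.73 to 4.81).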

How the results depend on the processing

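The count of 0 member probe sets past the threshold held under every alternative run, while the count over all probe sets was 0 to 1 with each array left out, the 1 arising when exposed animal 1 was missing. Of 228 recomputed member differences 217 kept their sign, and 0 became significant (smallest adjusted p 0.746 by limma). Signs turned with RNA quality as covariate for Ccl5 (-0.0396) and Cd8a (-0.0167 on 1385414_at, -0.0163 on 1395116_at), with array weights for Cd79b (0.00175), and with single arrays left out for Cd79b (-0.099 to 0.119) and 1385414_at of Cd8a (-0.0478 to 0.119). The causes were not tested. The number of positive differences was 12 to 14 without single arrays, and 3 of 4 where only probe sets above the median level were kept. The replicate block kept the number at 13 and ended or made no call. The 7 correlated pairs became 0 to 14 with each array left out, with a median r of 0.44 to 0.59 (0.51 with all 10). Without exposed animal 3 and control animals 4 and 5 they were 0, with a median r of 0.10 (chosen after seeing the data, fewer animals, narrower range). With every probe set of each gene they were 1 of 86, where more pairs are adjusted for. They were 9 with group means kept and 7 with quantile normalization or with RNA quality regressed out. Signals near the low end of the array limit what can be said of Cd3d, Cd3e, Cd8a and Nkg7.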
